A study of Mus musculus with 8 samples.

Results

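Wnt ligands are secreted lipid-modified proteins that bind Frizzled receptors and their co-receptors Lrp5 and Lrp6, and binding stops the destruction complex of Axin, Apc and Gsk3b from marking beta-catenin for breakdown. Beta-catenin then enters the nucleus and works with TCF and LEF factors on target genes, while Dkk proteins, secreted Frizzled-related proteins and Wif1 block the signal outside the cell. In the T cell lineage the pathway is best known for its TCF and LEF factors, which thymocytes need for their development. The genes described here are those of this pathway, taken by symbol: every Wnt, Fzd, Dkk, Sfrp, Axin or Dvl gene with a number, and Lrp5, Lrp6, Ctnnb1, Apc, Porcn, Wif1, Tcf7l1, Tcf7l2, Gsk3b and Frzb. The rule used no measured value and found 51 of the 12393 genes measured, carried by 81 probe sets (19 ligands, Porcn, 11 receptors, 10 secreted antagonists, 8 cytoplasmic transducers and 2 TCF factors). Fzd10, which the rule also covers, is not analysed here.

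RNA was hybridised to 8 Affymetrix Mouse 430A 2.0 arrays, 4 of a CD44hi and 4 of a CD44lo subpopulation sorted from stable mouse T cell lymphoma lines. CD44 is a hyaluronan receptor that is abundant on memory and activated T cells. Both subpopulations lack Snf5, which Smarcb1 codes for and which belongs to the SWI/SNF complex that remodels chromatin, so no array is of normal T cells. The sources used here give no mouse strain, age or means of Snf5 loss, and do not say how many lines were used, which array is of which line, or that replicates came from separate cultures, so the p-values rest on the spread among arrays alone, and that spread may be technical. Values are log2 intensities of probe sets, which are sets of short probes for 1 transcript. A gene was called at a Benjamini-Hochberg adjusted p under 0.05 over all genes in limma, a linear model across all genes, and each gene was read from its probe set of highest mean.

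Sorting was visible in Cd44, at 11.44 in CD44hi and 5.55 in CD44lo, and both groups carried the T cell genes Cd3e (13.06 and 13.10), Cd8a (13.86 and 13.87) and Lat (13.37 and 13.33). The T cell markers Thy1 (4.47 and 4.55) and Cd5 (4.32 and 4.29) were dim in both, and Smarcb1 was at 6.78 and 6.85. Arrays numbered 1 and 3 stood apart from those numbered 2 and 4 in both groups, and this difference passed the test for 25.4% of genes. Differences are therefore also given by number. The number sets were found in these same values, so here and below the p-values between them describe the split and do not test it. Of 7 marker lists of T and other cell types, 4 had 1 called gene each, all higher in CD44hi: Ebf1 of 10 B cell markers, Pdgfra of 13 stromal, Krt18 of 7 epithelial and Pecam1 of 6 endothelial ones. Over all genes, 3.81% were called, 2.03% higher and 1.78% lower. The summed linear intensity of the B cell markers, Ebf1 the brightest of them in CD44hi, was 3390 to 6100 in CD44hi and 459 to 530 in CD44lo. Of the other B cell markers, Cd79a was at 5.32 in CD44hi and 5.49 in CD44lo, Ms4a1 at 4.99 and 3.68 and Vpreb1 at 7.86 and 7.26, none called (limma adjusted p = 0.612, 0.0961 and 0.0785). Of the other stromal markers, Postn had a CD44hi mean of 8.17 and a CD44lo mean of 10.57, Fap had means of 7.23 and 7.83 and Dcn of 5.20 and 5.24, none called (limma adjusted p = 0.0667, 0.743 and 0.942). No epithelial marker but Krt18 was called. Epcam was at 11.42 in CD44hi and 11.37 in CD44lo, Krt8 at 5.27 and 5.17 and Cdh1 at 7.60 and 7.94. The endothelial gene Cdh5 was at 5.05 in CD44hi and 4.98 in CD44lo. Sums of the endothelial list were 970 to 1560 in CD44hi and 572 to 803 in CD44lo, and those of 4 NK markers 16000 to 19200 and 13600 to 15500. The NK sums rest on Nkg7, at 14.1 in CD44hi and 13.79 in CD44lo. The other NK markers were dim in both groups: Ncr1 (4.27 and 4.04), Klrd1 (4.18 and 4.22) and Klra8 (4.16 and 4.06). None of these NK markers was called. The stromal sums were 1280 to 1990 and 1560 to 3270, the epithelial 2170 to 4680 and 2640 to 3790, the macrophage and dendritic 754 to 1640 and 674 to 1250, and the T cell 88500 to 93400 and 90900 to 94900, in CD44hi and CD44lo in each case. The log2 ratio between 3' and 5' Gapdh control probe sets, a reading of RNA quality, also differed, with 0.816 ± 0.0517 for CD44hi arrays and 0.696 ± 0.0361 for CD44lo arrays (SD, n = 4 each). An exact permutation test, two-sided, gave p = 0.0286 for Gapdh, the smallest these arrays allow. The same ratio for Actb was 0.626 ± 0.152 in CD44hi and 0.498 ± 0.105 in CD44lo, and did not pass (exact permutation p = 0.229). The part of other cells or of RNA quality in the Wnt results was not tested.

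Most genes of the pathway did not pass the test, and those that did code for secreted ligands, a receptor, a secreted antagonist and a nuclear factor. The ligand genes Wnt10a and Wnt10b were higher in CD44hi, by 4.24-fold and 3.58-fold. The ligand gene Wnt16, the receptor gene Fzd2, the antagonist gene Sfrp2 and the nuclear factor gene Tcf7l2 were lower. The limma test thus called 2 members higher and 4 lower, 11.8% of the 51, against 3.81% of all genes called (2.03% higher and 1.78% lower). The median log2 difference, CD44hi minus CD44lo, was 0.00515 over the members and -5.86e-05 over all genes. With the replicate number as a block, 2 members were higher and 6 lower (15.7%, against 6.19% of all genes, 3.08% higher and 3.11% lower), the added ones being the receptor genes Fzd6 and Fzd7. The labels do not say what the replicate numbers stand for, so whether same-numbered arrays form pairs is not known. The 4 CD44hi values did not overlap the 4 CD44lo values in 7 members (13.7%), against 10.3% of all genes. RNA was measured in bulk, so fewer cells that express a gene and less of its RNA per cell cannot be told apart.

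**Figure D1:**
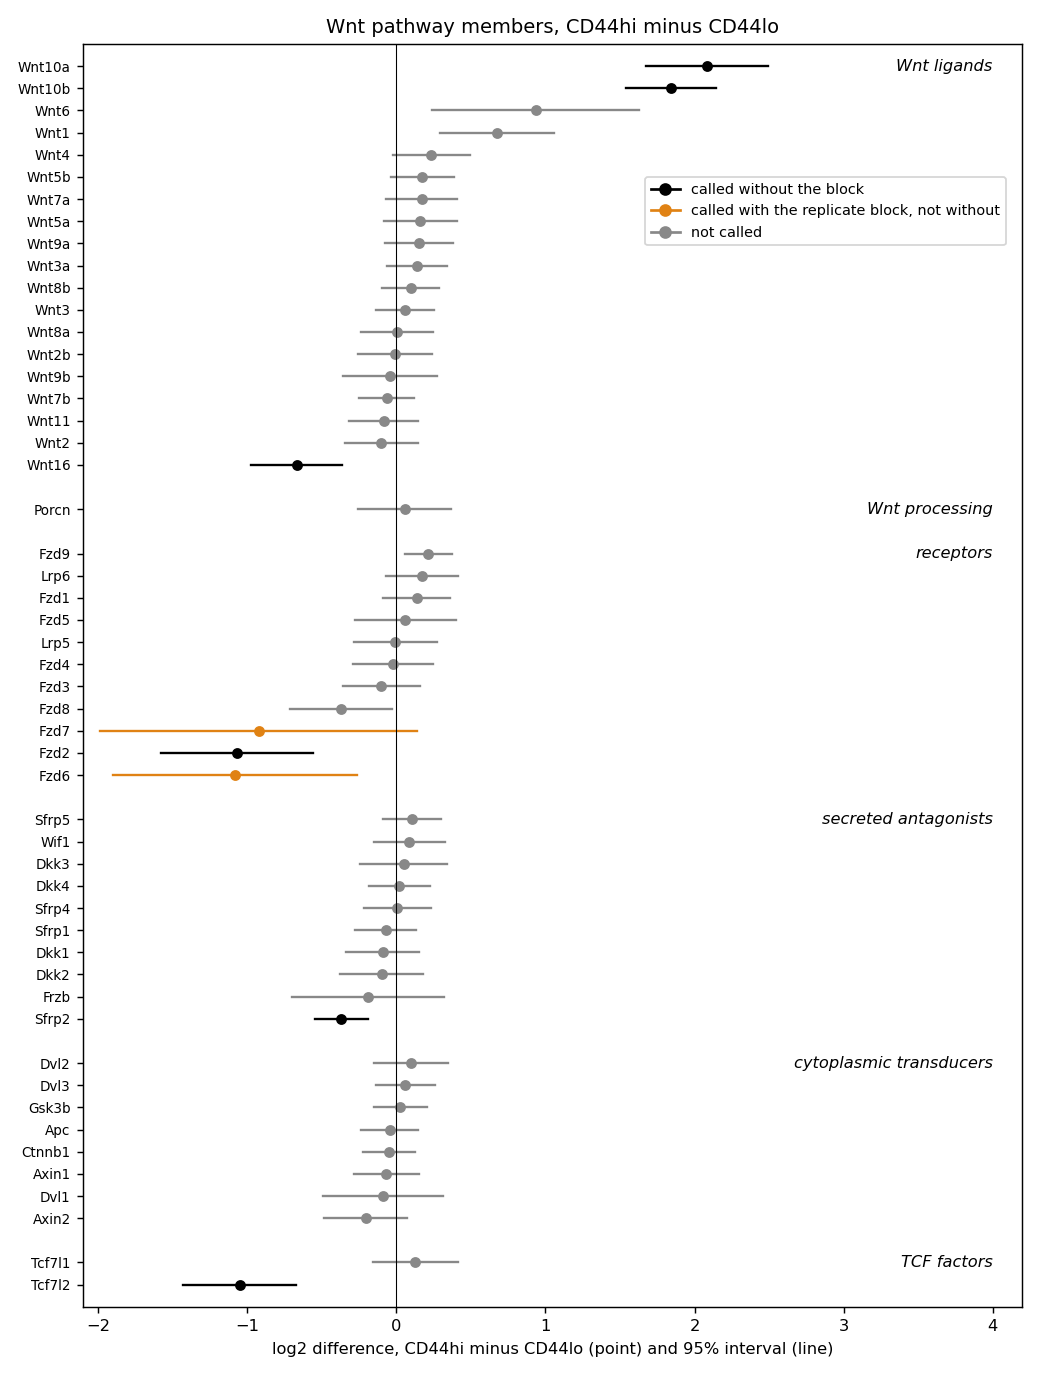
Log2 difference, CD44hi minus CD44lo, of each of the 51 members (points) with its 95% interval from limma (lines), ordered by class and by size. Wnt10a and Wnt10b lie far to the right at 2.08 and 1.84, Fzd2, Fzd6 and Tcf7l2 lie to the left between -1.08 and -1.05, and all 8 cytoplasmic transducers lie near 0.

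Wnt10a and Wnt10b code for closely related ligands that act through beta-catenin, and Wnt10b is known for favouring bone over fat formation. Wnt10a had log2 intensities of 10.46, 10.73, 10.47 and 11.10 in CD44hi replicates 1 to 4, against 8.83, 8.29, 8.87 and 8.43 in CD44lo replicates 1 to 4. The lowest CD44hi array stood 1.59 above the highest CD44lo array, and the group difference was 2.08 on the log2 scale (SE 0.18, 95% interval 1.67 to 2.49; limma adjusted p = 0.000228). At numbers 1 and 3 the difference was 1.62 and 1.61, and at numbers 2 and 4 it was 2.44 and 2.66. That gap between the number sets missed the threshold (limma interaction -0.94, adjusted p = 0.0624). Wnt10b had 9.23, 9.26, 9.41 and 9.68 in CD44hi, against 7.73, 7.33, 7.73 and 7.44 in CD44lo. Again every CD44hi array lay above every CD44lo array, with a difference of 1.84 (SE 0.13, 95% interval 1.54 to 2.14; limma adjusted p = 7.07e-05). By number it was 1.503, 1.93, 1.68 and 2.25. Each of these genes has 1 probe set on the array, so no second probe set checks the value. Promoters of the called members were searched for TCF/LEF motifs, since the pathway acts through these factors, and that of Wnt10b is shown as that with the largest difference among those RefSeq gave here. The window from RefSeq (build GRCm38.p6) runs from 250 bases before to 50 bases after the start of the gene. That of Wnt10b, at chr15:98778101-98778400 on the minus strand, holds no match and is therefore in lower case throughout. It contains 18 CG pairs, against a median of 7 over all promoters in the table and 4 to 58 in the members' windows.
Wnt10b: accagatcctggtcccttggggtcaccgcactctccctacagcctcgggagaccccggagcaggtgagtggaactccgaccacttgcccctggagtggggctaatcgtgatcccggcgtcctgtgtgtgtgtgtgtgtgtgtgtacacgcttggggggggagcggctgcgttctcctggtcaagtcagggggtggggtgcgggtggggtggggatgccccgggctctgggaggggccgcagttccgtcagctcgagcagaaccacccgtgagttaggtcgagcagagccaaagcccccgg

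**Figure D2:**
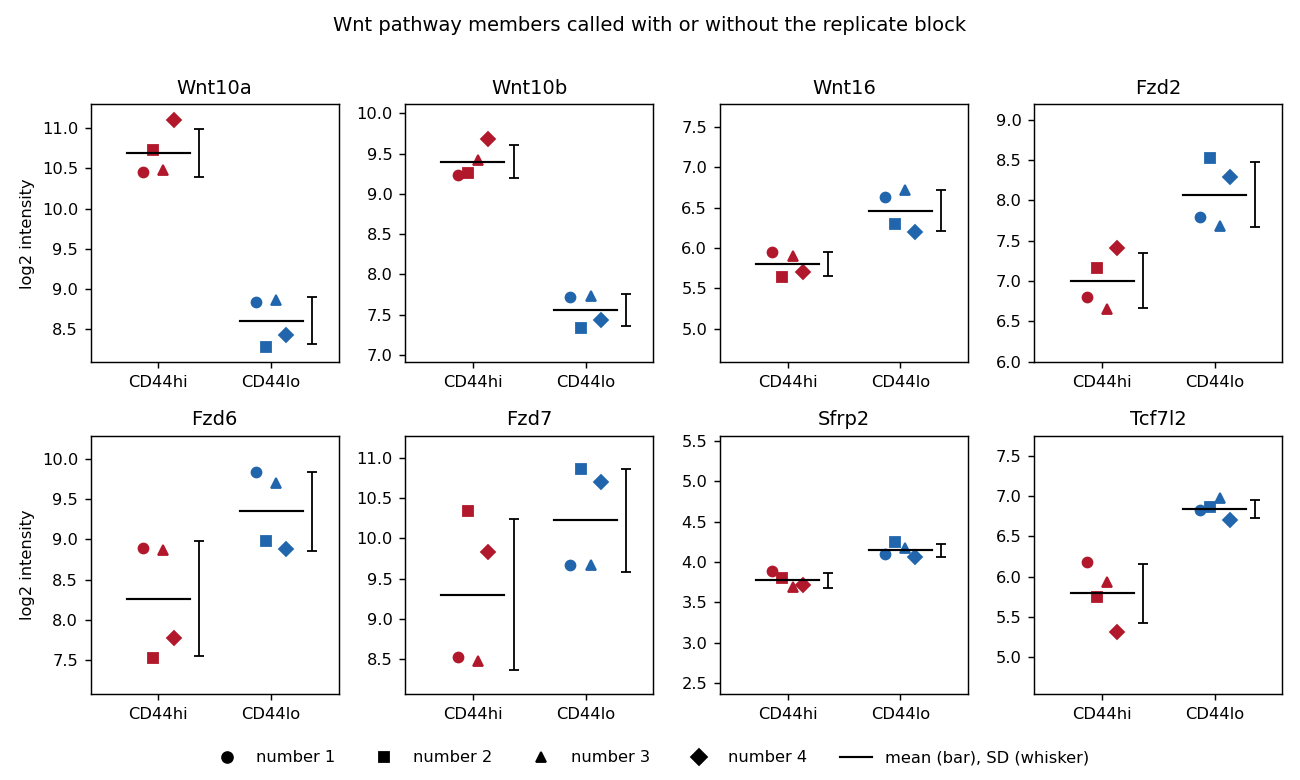
Log2 intensity on each array of the members called with or without the replicate block, CD44hi left and CD44lo right, with a marker shape for each replicate number, bars for group means, whiskers for the SD and the same span on every axis. Wnt10a and Wnt10b are higher in CD44hi at every number, and the others are lower at every number, with Fzd6 and Fzd7 split between odd and even numbers.

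Wnt10a and Wnt10b each have another ligand gene as a direct neighbour in the RefSeq annotation, which gave a comparison within the same stretch of chromosome. Wnt6, next to Wnt10a on chromosome 1, had 8.08, 8.90, 7.96 and 9.06 in CD44hi, against 7.996, 7.08, 7.95 and 7.24 in CD44lo. At numbers 1 and 3 the groups differed by 0.083 and 0.011, whereas at numbers 2 and 4 CD44hi was higher by 1.82 in both pairs. Over all arrays the difference of 0.93 did not pass (SE 0.31; limma adjusted p = 0.186), while that in numbers 2 and 4 alone did (limma adjusted p = 0.0015). The change of the difference between the number sets also passed (limma interaction -1.77, numbers 1 and 3 minus 2 and 4, adjusted p = 0.00439). It passed for 2 members, Wnt6 and Frzb, and for 1.52% of all genes. Cdk5r2, the neighbour of Wnt10a on its other side, had a difference of 0.0212 and was not called. Wnt1, next to Wnt10b on chromosome 15 and the founding member of the family, had 4.47, 5.10, 5.17 and 4.94 in CD44hi, against 4.54, 4.09, 4.08 and 4.26 in CD44lo. All CD44hi arrays but replicate 1 lay above the CD44lo arrays, but Wnt1 is dim and its difference of 0.68 missed the threshold (SE 0.17; limma adjusted p = 0.0697, or 0.107 with the replicate block). Leaving out CD44hi replicate 1 brought a call (0.83; limma adjusted p = 0.0128), and leaving out any other array did not. Wnt1 was called in 3 of 18 alternatives, among them numbers 2 and 4 alone and the number set as a factor. The other neighbouring ligand pairs, Wnt3 with Wnt9b and Wnt3a with Wnt9a on chromosome 11, had differences of 0.059 and -0.042 and of 0.14 and 0.15, none called.

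**Figure D3:**
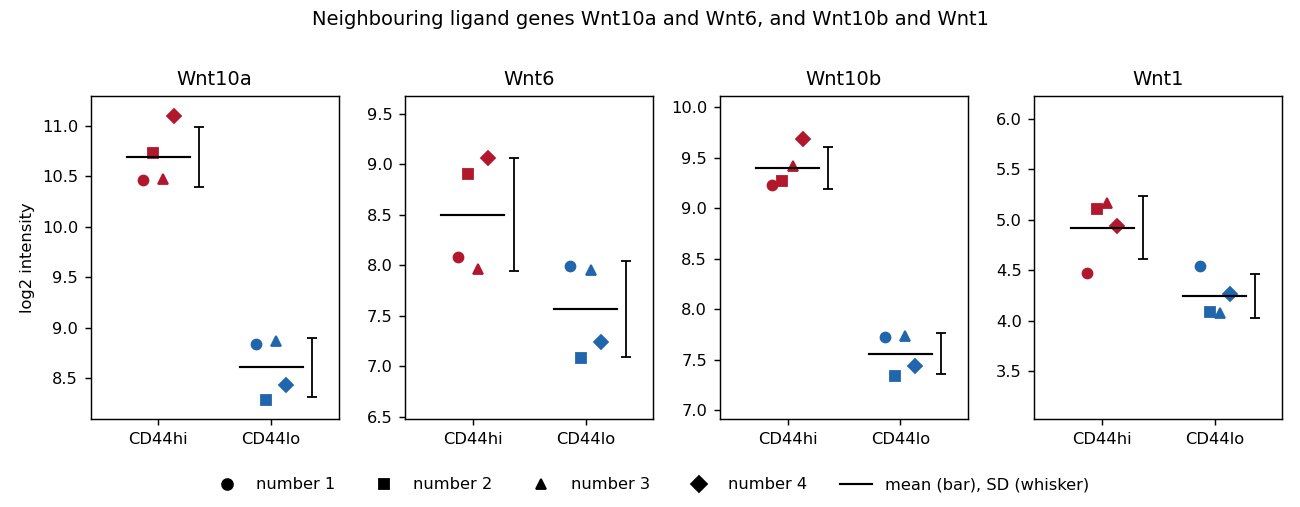
Log2 intensity on each array of the neighbouring ligand genes Wnt10a and Wnt6 and of Wnt10b and Wnt1, CD44hi left and CD44lo right, with a marker shape for each replicate number, bars for means, whiskers for the SD and the same span on every axis. Wnt6 separates the groups at numbers 2 and 4 and not at numbers 1 and 3.

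Wnt16, a ligand known for its role in cortical bone, moved the other way. It had 5.95, 5.64, 5.89 and 5.70 in CD44hi, against 6.63, 6.30, 6.72 and 6.20 in CD44lo. The groups did not overlap, though the gap between CD44lo replicate 4 and CD44hi replicate 1 was only 0.25. The difference was -0.67 (SE 0.13, 1.59-fold lower in CD44hi; limma adjusted p = 0.0272, or 0.00466 with the replicate block). The call was lost without CD44hi replicate 2, 3 or 4 or CD44lo replicate 1 or 3 (limma adjusted p 0.0552 to 0.0851). Median centring also lost it (limma adjusted p = 0.0537). The other 14 ligands had differences between -0.10 and 0.23, and none passed. Each of their 95% intervals lay within 0.5 of 0. The largest were those of Wnt4 (6.01 in CD44hi and 5.78 in CD44lo), Wnt5b (4.63 and 4.46) and Wnt7a (5.60 and 5.44). Both group means of 10 ligands lay below 5.43, the 25th percentile of gene means. Only Wnt10a and Wnt10b of the 19 ligands had a group mean above 9.03, the median of gene means. Porcn, the enzyme that adds a lipid which Wnt ligands need for secretion, had 4.87, 5.13, 4.53 and 4.85 in CD44hi, against 4.90, 4.54, 4.80 and 4.91 in CD44lo, with overlapping groups and no call.

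Frizzled genes code for the receptors that bind Wnt ligands, and the 1 called, Fzd2, was lower in CD44hi. Fzd2, a receptor of both beta-catenin and other Wnt signals, had 6.80, 7.16, 6.65 and 7.40 in CD44hi, against 7.79, 8.53, 7.68 and 8.28 in CD44lo. The groups did not overlap, with a difference of -1.07 (SE 0.23, 2.10-fold lower; limma adjusted p = 0.0341, or 0.00161 with the block). All 3 of its probe sets were called lower when every probe set was tested (-1.07, -0.58 and -1.05; limma adjusted p = 0.0394, 0.0252 and 0.0138, over 20380 probe sets). In that test 3 member probe sets were higher and 6 lower, 11.1% of 81, against 3.07% of all (1.57% higher and 1.51% lower). Leaving out CD44hi replicate 1, 2 or 3 or CD44lo replicate 1, 2 or 4 lost the Fzd2 call (limma adjusted p 0.0516 to 0.113), with differences of -1.16 to -0.91.

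Fzd6 and Fzd7 were lower in CD44hi at each number, and their levels also differed between the number sets. Fzd6, known for tissue polarity and hair patterning, had 8.89, 7.53, 8.86 and 7.77 in CD44hi, against 9.84, 8.98, 9.70 and 8.88 in CD44lo. In both groups the arrays numbered 1 and 3 were the high ones, by 1.04 over numbers 2 and 4 (limma adjusted p = 0.000399). The group difference of -1.08 did not pass without the block (SE 0.36; limma adjusted p = 0.194) and passed with it (SE 0.11; limma adjusted p = 0.00279). Its other probe set had a difference of -0.43, not called. Fzd7, a receptor found in many stem and progenitor cells, had 8.53, 10.34, 8.48 and 9.84 in CD44hi, against 9.67, 10.86, 9.67 and 10.70 in CD44lo. Here numbers 1 and 3 were the low ones, with a difference of -1.34 from numbers 2 and 4 (limma adjusted p = 0.000456), so the 2 genes ran in opposite directions across numbers while both had lower CD44hi means. The group difference of -0.92 did not pass over all arrays without a block (limma adjusted p = 0.499) and passed with it (limma adjusted p = 0.00767). It also passed with the number set as a factor (limma adjusted p = 0.00306) and, at -1.16, in numbers 1 and 3 alone (limma adjusted p = 0.00207). In numbers 2 and 4 alone, with differences of -0.51 and -0.86, it did not pass. Fzd7 was called in 3 of 19 alternatives. The other Fzd7 probe set was dim, at 5.24 in CD44hi and 5.17 in CD44lo, and was not called. The promoter window of Fzd7 on the plus strand at chr1:59481897-59482196 holds 1 TCF/LEF match, shown in capitals.
Fzd7: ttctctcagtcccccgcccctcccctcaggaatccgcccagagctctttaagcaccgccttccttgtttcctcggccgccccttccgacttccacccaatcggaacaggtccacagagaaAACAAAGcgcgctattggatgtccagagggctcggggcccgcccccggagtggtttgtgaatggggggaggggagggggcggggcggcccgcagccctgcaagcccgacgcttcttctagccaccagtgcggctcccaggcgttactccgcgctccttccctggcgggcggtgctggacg

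**Figure D4:**
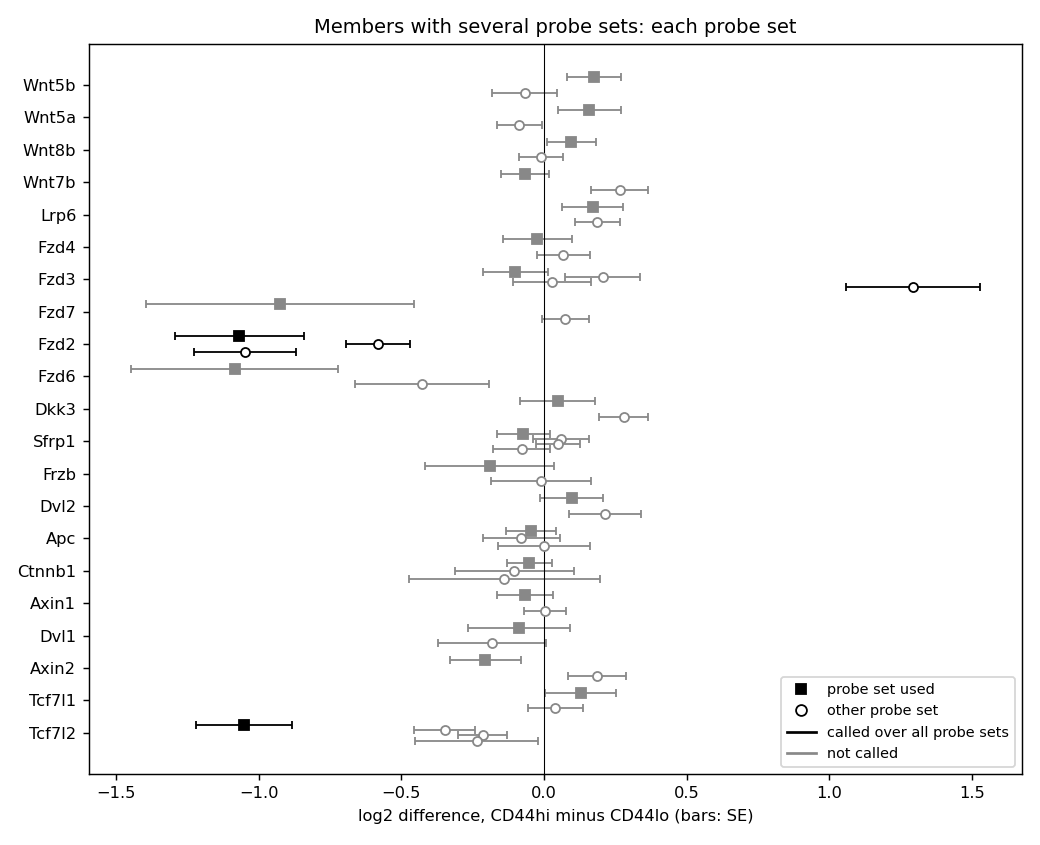
Log2 difference, CD44hi minus CD44lo, of every probe set of the 21 members with several (squares for the probe set used, circles for the others, bars for the SE, black where called over all probe sets). The 3 probe sets of Fzd2 are all called on the left, whereas 1 of 4 is called for Fzd3, on the right, and 1 of 4 for Tcf7l2, on the left.

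Fzd3, a receptor needed for axon guidance, depended on the probe set. Its probe set of highest mean had 5.95, 5.91, 5.51 and 5.94 in CD44hi, against 6.05, 5.82, 5.93 and 5.90 in CD44lo. These groups overlapped, and the difference of -0.10 was not called. Another had 4.59, 5.70, 4.54 and 5.19 in CD44hi, against 3.70, 3.77, 3.72 and 3.65 in CD44lo. Its groups did not overlap, and it was called higher over all probe sets (1.29, SE 0.23; limma adjusted p = 0.0187), though its CD44lo values lay below the medians of the bacterial controls (3.95 to 4.12), probe sets with no mouse target. The remaining 2 Fzd3 probe sets had differences of 0.21 and 0.028, not called. Fzd9 had 5.57, 5.51, 5.61 and 5.57 in CD44hi, against 5.38, 5.31, 5.29 and 5.43 in CD44lo. The groups were close but did not overlap, and the difference of 0.21 did not pass (SE 0.07; limma adjusted p = 0.175). Among the 8 receptor genes other than Fzd2, Fzd6 and Fzd7, differences lay between -0.37, for Fzd8 (7.07 in CD44hi and 7.44 in CD44lo; limma adjusted p = 0.336), and 0.21. The co-receptor gene Lrp6 was bright in both groups. It had 11.56, 11.60, 11.34 and 11.35 in CD44hi, against 11.19, 11.53, 11.25 and 11.20 in CD44lo, with overlapping groups and no call (0.17, SE 0.11, 95% interval -0.07 to 0.41). The other Lrp6 probe set had a difference of 0.19, not called, and its groups did not overlap. Lrp5, the second co-receptor gene, was at 4.57 in CD44hi and 4.58 in CD44lo.

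Secreted antagonists bind Wnt ligands or the co-receptors, and 1 of the 10 passed. Sfrp2, a Frizzled-related protein that binds Wnt ligands, had 3.89, 3.80, 3.69 and 3.72 in CD44hi, against 4.10, 4.24, 4.17 and 4.06 in CD44lo. The groups did not overlap and the difference of -0.37 passed (SE 0.08; limma adjusted p = 0.0347), but all 8 values lay near the bacterial control medians (3.95 to 4.11 in CD44hi and 3.95 to 4.12 in CD44lo), and the call was lost in 11 of 18 alternatives. Leaving out any array but CD44hi replicate 1 lost it (limma adjusted p 0.0663 to 0.114). Frzb, a related antagonist, had 7.76, 7.98, 7.82 and 7.84 in CD44hi, against 7.60, 8.53, 7.59 and 8.45 in CD44lo. The CD44hi arrays lay close together, while CD44lo was low at numbers 1 and 3 and high at numbers 2 and 4. The group difference over all arrays was -0.19 and not called, and its change between the number sets passed (limma interaction 0.78, numbers 1 and 3 minus 2 and 4, adjusted p = 0.0352). Sfrp5 had 6.06, 6.21, 6.20 and 6.05 in CD44hi, against 5.87, 6.08, 6.15 and 5.99 in CD44lo. Sfrp4 had 5.35, 5.66, 5.39 and 5.41 in CD44hi, against 5.63, 5.35, 5.35 and 5.45 in CD44lo. Both overlapped between the groups and were not called. In all, 9 of the 10 antagonists did not pass, and both group means of 7 lay below 5.43. These include Dkk1, Dkk2, Dkk3, Dkk4 and Wif1.

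None of the 8 cytoplasmic transducer genes was called, with or without the block, and each of their 95% intervals lay within 0.5 of 0. Ctnnb1, which codes for beta-catenin, had 13.39, 13.19, 13.41 and 13.35 in CD44hi, against 13.42, 13.32, 13.45 and 13.36 in CD44lo. The groups overlapped, with a difference of -0.05 and a 95% interval of -0.22 to 0.12. Dvl1, which relays the signal from Frizzled, had 12.45, 13.13, 12.59 and 13.21 in CD44hi, against 12.83, 13.12, 12.81 and 12.97 in CD44lo, also overlapping (-0.09). Axin1, a scaffold of the destruction complex, had 10.20, 10.37, 10.28 and 10.50 in CD44hi, against 10.31, 10.56, 10.29 and 10.45 in CD44lo (-0.07). Apc (9.97 and 10.02) and the kinase gene Gsk3b (10.12 and 10.09) were likewise bright in both groups. Axin2, both a scaffold and a widely used target of beta-catenin signalling, was at 7.26 in CD44hi and 7.46 in CD44lo (-0.21, 95% interval -0.48 to 0.07; limma adjusted p = 0.598). In arrays numbered 1 and 3 alone it passed as lower (-0.40; limma adjusted p = 0.0348), while at number 2 it differed by -0.024 and at number 4 both groups were at 7.18. Its other probe set had a difference of 0.19, not called.

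Tcf7l2, also called TCF4, is a nuclear partner of beta-catenin and is known from intestinal stem cells. It had 6.18, 5.74, 5.93 and 5.31 in CD44hi, against 6.83, 6.86, 6.98 and 6.70 in CD44lo. CD44lo arrays were tightly grouped and all above CD44hi, with a difference of -1.05 (SE 0.17, 95% interval -1.43 to -0.67; limma adjusted p = 0.00855, or 0.00449 with the block). It was 2.07-fold lower in CD44hi, and by number the difference was -0.65, -1.12, -1.05 and -1.39. The other 3 Tcf7l2 probe sets had differences of -0.35, -0.21 and -0.24, in the same direction and not called. In 2 of these 3 the groups did not overlap. Their means, in the same order, were 5.14, 4.15 and 3.65 in CD44hi and 5.49, 4.36 and 3.88 in CD44lo. Those of the probe sets with differences of -0.21 and -0.24 lay near the bacterial control medians (3.95 to 4.12). For the difference of -0.24, CD44lo replicate 1 was at 4.55 and the other CD44lo arrays at 3.37 to 3.89. Tcf7l1, the related factor, had 5.64, 5.81, 5.82 and 6.21 in CD44hi, against 5.69, 5.63, 5.89 and 5.75 in CD44lo, overlapping and not called. RefSeq lists a pair of Tcf7l2 starts on the plus strand, at chr19:55741560-55741859 and chr19:55895071-55895370, and both windows are shown. Which start each probe set reads was not tested. The upstream one holds no TCF/LEF match and 34 CG pairs, and the downstream one holds 1 match, in capitals, and 7 CG pairs.
Tcf7l2 upstream: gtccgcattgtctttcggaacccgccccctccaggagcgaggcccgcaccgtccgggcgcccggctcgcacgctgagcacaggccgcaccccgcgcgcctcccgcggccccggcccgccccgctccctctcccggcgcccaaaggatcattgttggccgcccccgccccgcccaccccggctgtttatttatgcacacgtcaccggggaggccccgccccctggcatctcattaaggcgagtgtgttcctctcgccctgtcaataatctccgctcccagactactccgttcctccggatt
Tcf7l2 downstream: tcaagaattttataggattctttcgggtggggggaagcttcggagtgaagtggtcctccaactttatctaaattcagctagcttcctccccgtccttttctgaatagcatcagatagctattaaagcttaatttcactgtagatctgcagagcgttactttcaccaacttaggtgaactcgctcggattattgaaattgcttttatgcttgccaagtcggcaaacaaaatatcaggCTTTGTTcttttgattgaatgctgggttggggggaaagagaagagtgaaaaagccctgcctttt

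Motifs for TCF and LEF factors were searched on both strands. They share their start and differ in their last letters, so no pair of them matches at the same place.
The first TCF/LEF motif: CTTTGAA
The second TCF/LEF motif: CTTTGAT
The third TCF/LEF motif: CTTTGTA
The fourth TCF/LEF motif: CTTTGTT

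At least 1 of them was found in 16.9% of all 32851 promoter windows of the table and in 6 of 39 windows of the members (15.4%), which 34 members have. Of the 8 members called with or without the block, 5 have a window in the table and 2, Fzd7 and Tcf7l2, hold a match. A match is a stretch of letters and not a measured binding site.

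Genes around the members were taken from 5 further lists of the pathway, of which the target list also holds the member Axin2. Of 25 measured targets of beta-catenin signalling, without the sorting marker Cd44, 1 was higher and 0 lower (limma), or 4% against 3.81% of all genes, with a median difference of -0.00992. This share is near that of all genes. The 1 called was Id2, an inhibitor of basic helix-loop-helix factors, at 13.13 in CD44hi and 12.59 in CD44lo (0.54, SE 0.10; limma adjusted p = 0.0224). The lowest of its 3 probe sets had a difference of 0.00048. The Id2 call was lost in 9 of 19 alternatives, among them without CD44hi replicate 1 or 2 or CD44lo replicate 2, 3 or 4 (limma adjusted p 0.0554 to 0.0797). Mitf, a pigment cell and mast cell factor, was not called without the block and passed as lower with it (-0.43; limma adjusted p = 0.0472). It also passed with the number set as a factor (limma adjusted p = 0.0165) and in numbers 1 and 3 alone (-0.55; limma adjusted p = 0.0196). Targets named often in this pathway were not called: Myc was at 12.48 in CD44hi and 12.33 in CD44lo, Ccnd1 at 8.17 and 8.12, and the ubiquitin ligase gene Rnf43 at 10.69 and 10.35. Myc and Ccnd1 fall outside the naming rule and, like Lef1 and Lrp5, were chosen after their values were seen. The members Apc and Gsk3b and the neighbouring ligand genes Wnt3, Wnt9b, Wnt3a and Wnt9a also fall outside that rule. Lef1 was dim, at 4.33 and 4.45, and Tcf7 is not analysed here.

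The counts of the other lists stand against 3.81% of all genes called by limma without the block and 6.19% with it. Of 20 receptor partners and secretion genes 0 were called by limma, with a median of -0.00269 and differences of -0.13 to 0.33. Of 24 further destruction complex genes 0 were called (median -0.0205), or 1, Csnk1e, with the block, a casein kinase gene at 5.95 in CD44hi and 6.64 in CD44lo (-0.70; limma adjusted p = 0.00543). Of 29 nuclear partners 0 were called (median 0.0207), or 1, Ctnnbip1, with the block, which codes for an inhibitor of beta-catenin binding to TCF factors (-0.41; limma adjusted p = 0.0312). Of 28 genes of the planar polarity and calcium branch, 1 was lower and 0 higher, or 3.57%, near the share of all genes (median -0.0427). It was Camk2d, a calcium-dependent kinase gene, at 7.90 in CD44hi and 9.31 in CD44lo (-1.41, SE 0.23; limma adjusted p = 0.00997), and both of its probe sets were lower (-1.41 and -1.10).

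**Figure D5:**
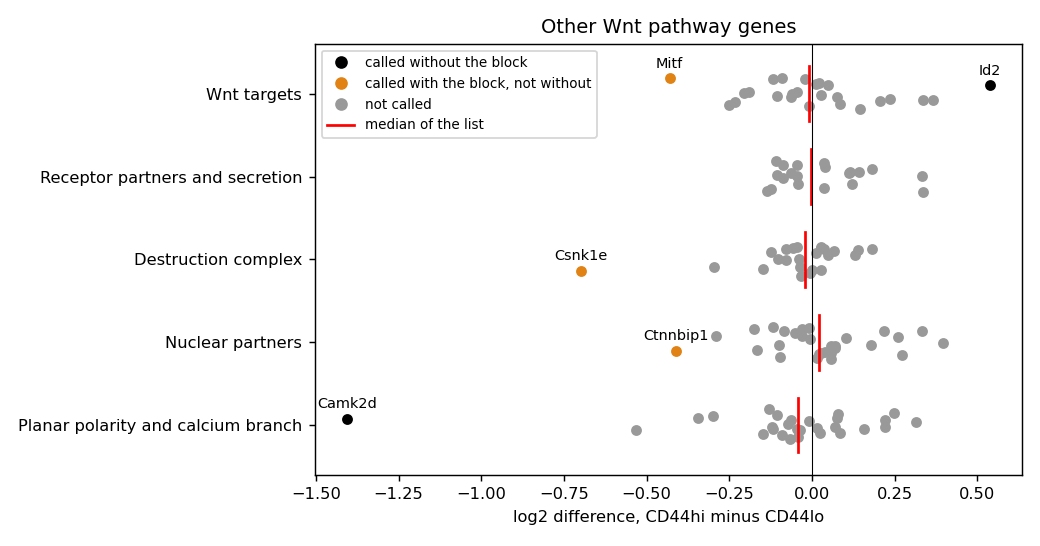
Log2 difference, CD44hi minus CD44lo, of each measured gene of the 5 further pathway lists (points), with the median of each list as a red line. All 5 medians lie within 0.05 of 0, and Camk2d, Csnk1e and Id2 stand farthest out.

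The split of arrays by number reached 7 members (13.7%, against 25.4% of all genes). Axin1, Dvl1, Frzb, Fzd2 and Fzd7 were lower, and Fzd6 and Wnt16 higher, in numbers 1 and 3 than in numbers 2 and 4. For Fzd2 that difference was -0.61 (limma adjusted p = 0.00196) and for Wnt16 0.34 (limma adjusted p = 0.00753). Wnt10a and Wnt10b did not follow it, at 0.023 and 0.095 (limma adjusted p = 0.948 and 0.662). Of the 21 members with several probe sets, all had the same sign in 11 and probe sets of both signs occurred in 10. Of the 45 members not called without the block, 39 had a 95% interval within 0.5 of 0.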

How the data were processed

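Gene expression was measured on 8 arrays, and group and replicate number were taken from the titles. Per the labels' protocols, the authors preprocessed the scans with RMA, a method of background correction, normalization between arrays and probe summary. Its version is not given in the sources used here. The deposited values, 7.61 to 36128 with array medians of 320.3 to 339.1, were read as intensity on a linear scale and turned into log2 without a pseudocount. The deposited table was named through the platform annotation: of 22690 probe sets 64 are controls, 20380 have 1 symbol, 691 several and 1555 others none. All 51 members were found by gene identifier in RefSeq (GRCm38.p6). RMA shrinks differences near background, and 8 arrays limit the precision.

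CD44hi was compared with CD44lo in limma 3.58.1 (R 4.3.3; lmFit, then eBayes), without covariates, and p was adjusted by Benjamini-Hochberg over 12393 genes. Gapdh and Actb ratios of 3' to 5' probe sets were compared by exact permutation (Actb 0.626 in CD44hi and 0.498 in CD44lo, n = 4 each, exact p = 0.229). The fit was tested on simulated data with independent noise on each array. That simulation held no split by number and no pairing, so it does not show how the fit behaves under them. The members, lists and number sets were chosen with earlier results of these data known. Values in every array are given for members called with or without the block, in any probe set, or not overlapping between groups, and for the 3 brightest of each class, and up to 6 others and up to 4 genes of each list may be named. Same-numbered arrays deviated together across genes (correlations 0.574, 0.404, 0.533 and 0.531), which met the rule set for pairing, that every correlation exceed 0.1. Unlike numbers that are both odd or both even gave similar correlations (0.372 to 0.521). The rule therefore cannot tell pairing by number from the split of odd and even numbers, and both come from the values. Alternatives were other normalizations, a filter on dim genes, other probe set choices, variance models, the block, number sets, left-out arrays and thresholds.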

Additional observations from a re-analysis of the deposited data

Results flagged for a closer look

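An array stood well away from the other 3 of its group in 6 of 96 cases looked at, and chance alone gives about 1 in 20. Axin2 was at 7.18 in CD44hi replicate 4 and 7.27 to 7.29 in the others. Fzd3 was at 5.51 in CD44hi replicate 3 and 5.91 to 5.95 in the others. Wnt4 was at 5.81 in CD44hi replicate 4, against 6.07 to 6.10, and at 5.49 in CD44lo replicate 2, against 5.87 to 5.88. Sox7, a transcription factor gene of the nuclear partner list, was at 4.12 in CD44hi replicate 1 and 4.30 to 4.32 in the others. Camk2d was at 9.95 in CD44lo replicate 2 and 9.05 to 9.18 in the others.

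The difference between CD44hi and CD44lo varied with the replicate number for a pair of members. For Frzb it was 0.78 greater at numbers 1 and 3 than at 2 and 4 (limma interaction, adjusted p = 0.0352), and for Wnt6 the same quantity was -1.77 (adjusted p = 0.00439). The number sets come from the values and are no groups of the study.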

How the results depend on the processing

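The alternatives gave 474 values for 26 named members: 436 stayed on the same side of the threshold, 23 lost a call, 13 gained a call and 2 reversed. Most of these members were not called to begin with. The lost calls were those of Sfrp2 (11 of 18 alternatives), Fzd2 (6 of 18) and Wnt16 (6 of 18). Wnt10a, Wnt10b and Tcf7l2 were called in every alternative run for each of them (1.61 to 2.55, 1.59 to 2.09 and -1.25 to -0.46). Fzd3, at -0.10, reversed to 0.36 (limma adjusted p = 0.0461) with the mean of all probe sets and to 1.29 (limma adjusted p = 0.0167) with the most variable one. Against 2 members higher and 4 lower, 2 were lower with median centring or a log2 difference of at least 1, 1 was lower at an adjusted p under 0.01, 4 were higher with numbers 2 and 4 alone, and 1 was higher and 0 lower above the median of gene means, a filter that leaves out Wnt10b and all 4 lower members. Without any 1 array, 2 to 3 were higher and 1 to 3 lower.

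Over all genes, against 252 higher and 220 lower, the replicate block gave 382 and 385, and among members it added Fzd6 and Fzd7 and removed no call. The filter on dim genes left 102 and 113, array weights gave 403 and 418, numbers 1 and 3 alone 422 and 450, and the number set as a factor 522 and 544. A threshold of 0.01 left 141 and 100, and a least log2 difference of 1 left 108 and 68. Without any 1 array, 178 to 230 genes were higher and 127 to 226 lower, with 128, 142 and 127 lower without CD44lo replicate 2, 3 or 4. The causes of these changes in the counts were not tested. Dim members, of which 22 have both means below the 25th percentile, limit what these arrays can show.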
